A study of Cynoglossus semilaevis with 24 samples.

Results

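Histone genes were examined in 24 RNA sequencing libraries of Chinese tongue sole, a flatfish with Z and W sex chromosomes in which females carry the W. The genes were found by their product names, which had to begin with histone H1, H2A, H2B, H3 or H4 or to contain core histone macro. Of 22773 rows in the deposited gene table, 44 met this rule. A deubiquitinase and 2 histone H4 transcription factor rows were set aside, which left 41 histone genes. Ovary and testis, which the labels call gonad with a genetic sex, brain, pituitary and liver of females and males aged 2 years formed 8 groups. No fish was treated, and each group had 3 libraries, each made from a pool of 5 fish, so p-values rest on the spread between pools and not between single fish. Phenotypic sex was not in the labels, and the markers of oocytes and of spermatogenic cells followed the genetic sex of the gonads in all 6 gonad libraries.

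Histones are the proteins around which DNA is wound. The core histones H2A, H2B, H3 and H4 build the nucleosome, and linker histones of the H1 type bind the DNA that enters and leaves it. Most core histone genes lie in clusters and are transcribed during DNA replication. Their messages end in a stem-loop bound by the stem-loop binding protein rather than in a poly(A) tail. Variant histones such as H2A.Z, H3.3, macroH2A and CENP-A come from genes outside such clusters with polyadenylated messages and enter chromatin outside replication. Growing oocytes of fish and frogs store histones and their messages for the early embryo, whereas male germ cells repackage their chromatin during sperm formation. Whether the libraries were selected for poly(A) was not given in the sources used here.

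The 41 genes comprised 26 core histones (7 H2A, 9 H2B, 3 H3 and 7 H4) and 15 linker and variant histones. The linker and variant set held 5 linker H1, 3 H2A.Z or H2A.V, 1 H2AX, 2 macroH2A, 1 H3.3, 1 CENP-A and 2 genes named H3.v1-like. One H3.v1-like row (ncbi-103377592) carries the symbol hmgn1a in the RefSeq annotation of assembly Cse_v1.0, a nucleosome-binding protein that is no histone. It is called hmgn1a here and, since it met the name rule, is included in all counts, shares and sums of histone genes. In that annotation 28 of the 41 genes sat in 5 groups of close neighbours, 6 on chromosome 5, 5 on chromosome 7, 8 on chromosome 19, 4 on chromosome 1 and 5 on chromosome 8. Every core gene except LOC103379065, which was not matched in the annotation, belonged to such a group. The build behind the deposited values was not given in the sources used here, so no coordinates are given.

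Library totals ran from 10032337 to 15409531 estimated counts, apart from ovary pool 1 with 25293744. Summed oocyte markers, without the member h1m, were at 22240 to 26500 FPKM in ovary and 411 to 489 FPKM in testis, and summed spermatogenic markers at 43.4 to 49.6 FPKM in ovary and 774 to 1047 FPKM in testis. In other organs 3 libraries had the highest oocyte sums. At a lower level, female liver pool 1 also stood above its group, at 53.7 FPKM against 17.7 and 23.9 FPKM. The oocyte sum was 166.5 FPKM in male brain pool 1, 126 FPKM in female pituitary pool 3 and 189 FPKM in male pituitary pool 3, against 17.7 to 69.2 FPKM in the other 15 libraries of brain, pituitary and liver. Ovary pool 2 held 2866 FPKM of hepatocyte markers, against 84.2 and 108 FPKM in the other ovary pools. The 4 granulosa markers, of which amh is also on the list of Sertoli and Leydig markers, summed to 9.01 to 20.5 FPKM in ovary and 40.1 to 49.6 FPKM in testis. The part of either list in the results was not tested.

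FPKM scales the fragments of a gene by its length and by the library total, so that it can be compared between genes. Histone messages were most abundant in the gonads. The 41 genes summed to 3893, 4458 and 3488 FPKM in the ovary pools and to 1998, 1628 and 1774 FPKM in the testis pools. The mean sums were 304 FPKM in female brain, 279 FPKM in male brain, 331 FPKM in female pituitary, 304.5 FPKM in male pituitary, 81.1 FPKM in female liver and 62.9 FPKM in male liver. Of the 38 genes with any count, 24 had their highest group mean in testis and 12 in ovary, a count not made over all genes. The exceptions were macroh2a1, highest in female brain, and LOC103382528, an H4 gene with 1.30, 0.63 and 0 FPKM in female pituitary. Of the 41 genes, 9 reached 1 FPKM in all 24 libraries, 8 stayed below 1 FPKM in all of them, and 3 of those 8 had no count at all. Most core genes of the name rule were read at low levels: 20 of the 26 stayed below 10 FPKM in all 24 libraries. In ovary the 26 still summed to a mean of 608 FPKM, with a mean share of 84.0% from LOC103379065. Core histone rows outside the rule are given below.

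Each gonad was set beside the other organs of its sex, over genes that reached 1 FPKM in 3 or more of the 12 libraries of that sex. Among 26 such histone genes, 15 had all 3 ovary pools above all 9 other female pools, against 28.5% of all genes. Of the 15, 7 passed the filter through ovary alone and had to lie above; among the other 19 genes 8 did, or 42.1% against 25.6% of all genes chosen alike. In ovary 1 of the 26 lay below all 9 pools, against 18.6% of all genes. Among 25 histone genes, 21 had all 3 testis pools above all 9 other male pools, against 37.3% of all genes. Of the 21, 9 passed through testis alone; among the other 16 genes 12 lay above, or 75.0% against 33.8%. No histone gene lay below the other organs in testis, as did 3.1% of all genes. In bulk tissue, fewer cells of a type and less RNA per cell cannot be told apart.

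Ovary was compared with testis to learn which histone genes each gonad uses. Of the 41 genes, 30 passed a filter that asked for 1 FPKM in 3 of the 6 gonad libraries, and 11 did not. With edgeR (quasi-likelihood, p adjusted over the 16195 genes tested), 22 of the 30 were called different at an adjusted p under 0.05, or 73.3%, against 84.2% of all genes. Of these, 9 were higher in ovary, or 30.0% against 38.8% of all genes, and 13 were higher in testis, or 43.3% against 45.4%. At least 10-fold differences were called in 8 genes, or 26.7% against 21.4%. The FPKM of the gonads did not overlap in 20 genes, or 66.7% against 86.3%. The median log2 difference, ovary minus testis, was -0.04 over the 30 genes and -0.24 over all genes. Of the 30, 5 passed the filter through one gonad alone and so could hardly have failed to differ. These were LOC103381130 and LOC103396892 through ovary, and LOC103381128, LOC103382514 and LOC103395675 through testis.

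**Figure D1:**
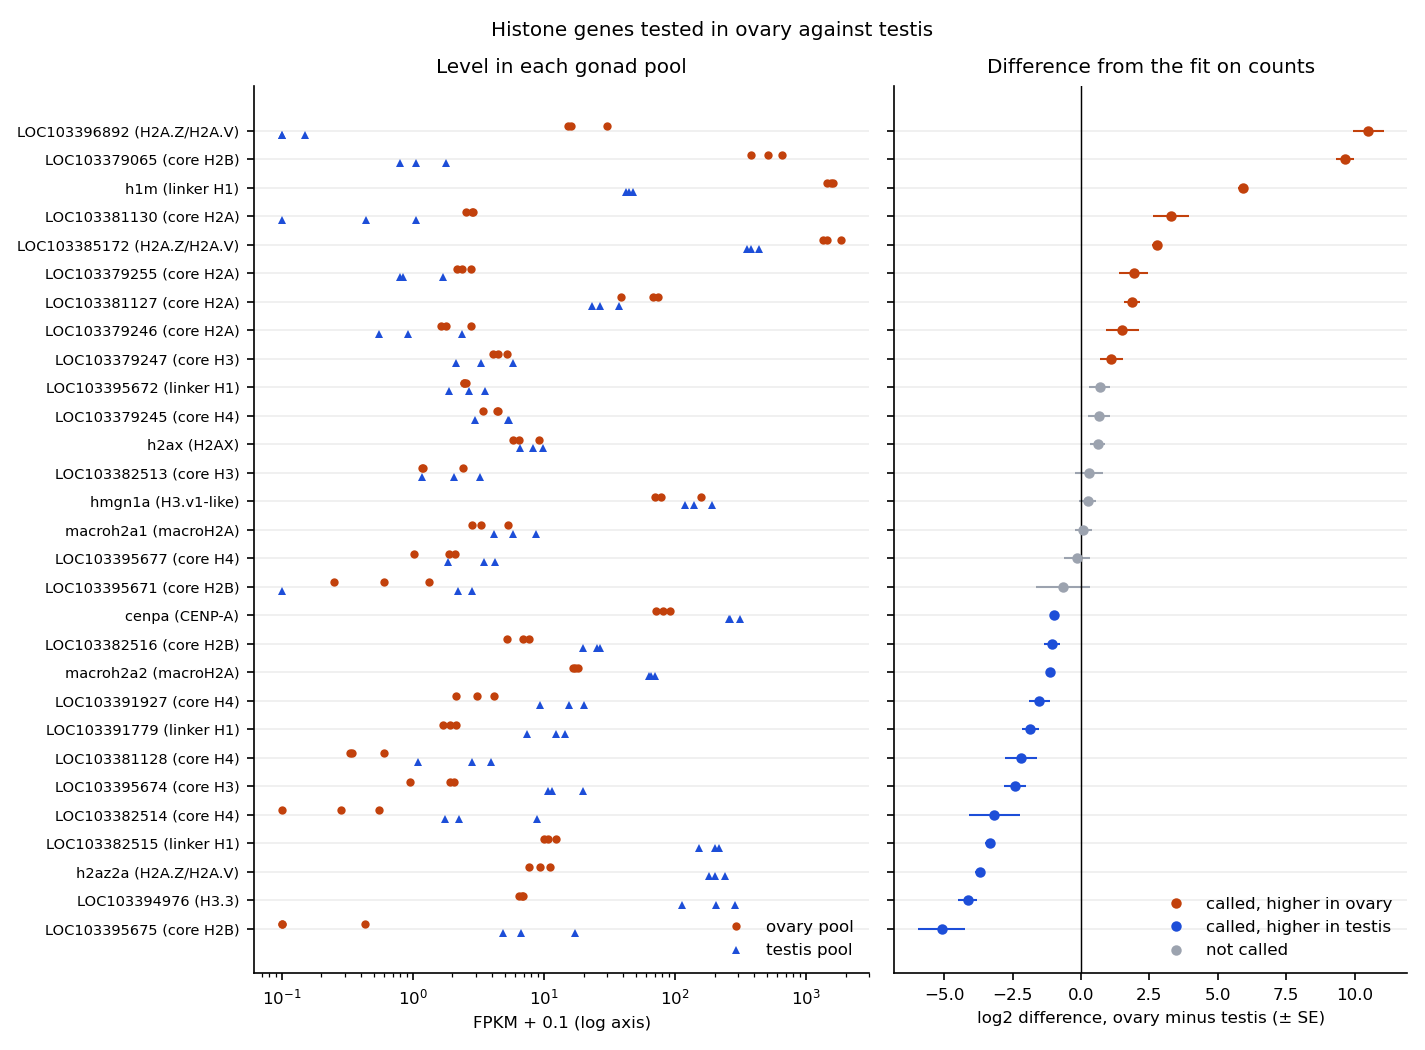
Named histone genes tested in ovary against testis. The left panel plots FPKM + 0.1 on a log axis for each of the 3 ovary pools (circles) and 3 testis pools (triangles), and the right panel the log2 difference, ovary minus testis, with its SE from the edgeR fit, coloured by whether the gene was called higher in ovary, higher in testis or not called. The 9 genes at the top were called higher in ovary, led by LOC103396892 and LOC103379065, and the blue ones at the bottom higher in testis, led by LOC103395675; the fitted value of LOC103396892 rests on 1 testis count.

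Differences below come from the fit on counts, which rescales the libraries (TMM), and so can depart from the ratio of FPKM values. The rescaling moved the median log2 difference of all genes to -0.24, against -1.04 without it and -0.08 with median-ratio scaling. Of the 22 calls, 19 were also made without rescaling. The 3 that were not were the weakly expressed chromosome 5 genes LOC103379255, LOC103379246 and LOC103379247.

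Ovary and testis drew most of their linker histone messages from different genes. The ovary pools held 1608, 1543 and 1435 FPKM of h1m (ncbi-103385823), the linker histone of fish oocytes and early embryos, named histone H1.1-like in the deposited table. The testis pools held 42.1, 47.5 and 44.1 FPKM of it. The groups lay far apart, 59.9-fold in the fit (log2 difference 5.90, SE 0.16, edgeR adjusted p = 2.59e-10). In ovary h1m made up 98.9 ± 0.131% of the summed linker histone FPKM, and in testis 12 ± 2.16% (SD, n = 3 pools each).

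The H1-like gene LOC103382515 supplied the largest share of linker histone FPKM in testis, 50.5 ± 3.47% (SD, n = 3 pools). Its levels were 10.6, 9.80 and 12.2 FPKM in the ovary pools and 218, 153 and 201 FPKM in the testis pools (log2 difference -3.33, SE 0.18, edgeR adjusted p = 2.10e-08). A weaker H1-like gene, LOC103391779, had 1.60, 1.83 and 2.02 FPKM in ovary and 14.4, 7.26 and 12.2 FPKM in testis, again without overlap (log2 difference -1.85, SE 0.30, edgeR adjusted p = 1.30e-04). The linker gene LOC103395672, was at about 2 FPKM in both gonads, with 2.45, 2.36 and 2.37 FPKM in ovary and 3.43, 2.56 and 1.77 FPKM in testis, and its difference was not called (log2 difference 0.68, with SE 0.38 and edgeR adjusted p = 0.114).

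**Figure D2:**
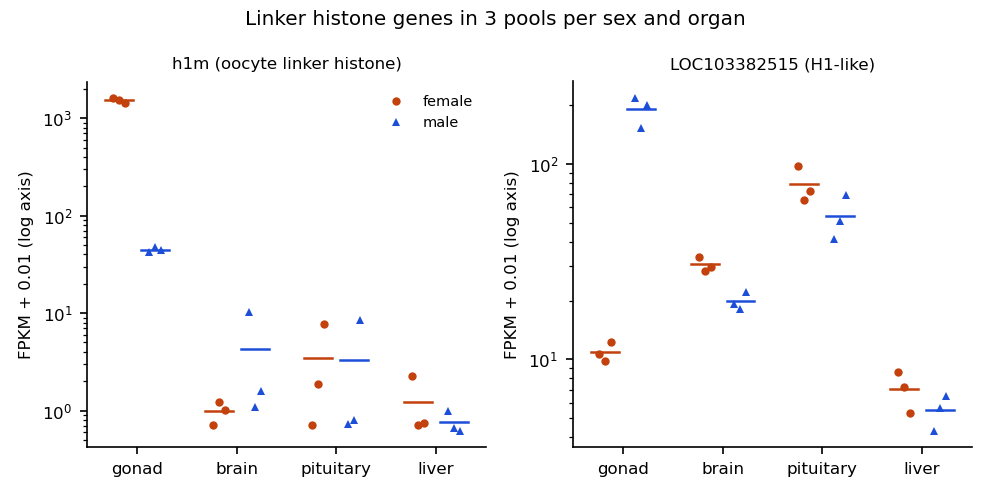
FPKM + 0.01 on a log axis for h1m and LOC103382515 in gonad, brain, pituitary and liver. Each point is a pool, female pools (circles) left of male pools (triangles), and the line is the mean of 3. The h1m panel shows 1 raised male brain pool at 10.3 FPKM and 1 raised pituitary pool in each sex at 7.75 and 8.44 FPKM, and the LOC103382515 panel testis pools at 153 FPKM or more.

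Outside the gonads h1m was at 2.25 FPKM or less, a value reached in female liver pool 1, except in the 3 libraries with the highest oocyte sums. Male brain pool 1 had 10.3 FPKM against 1.07 and 1.56 FPKM in the other male brain pools, female pituitary pool 3 had 7.75 FPKM against 0.700 and 1.86 FPKM, and male pituitary pool 3 had 8.44 FPKM against 0.710 and 0.790 FPKM. It was called in neither organ (edgeR adjusted p = 0.253 in brain and 0.983 in pituitary). The H2B gene LOC103379065 was raised in the same 3 libraries, at 3.36, 3.26 and 2.01 FPKM, and was no higher than 0.980 FPKM in the other 15 libraries of those organs.

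The histone variants H2A.Z and H2A.V replace H2A at promoters and regulatory DNA. Among them, the genes on the sex chromosomes went opposite ways. The table holds 2 rows of H2A.V under the same product name, LOC103396892, which the reference places on W, and h2az2a (ncbi-103397872), which it places on Z. Females carry the W, so for these genes sex cannot be told apart from the presence of the W or the number of Z chromosomes. LOC103396892 was at 15.1, 30.0 and 16 FPKM in the ovary pools and at 0, 0.05 and 0 FPKM in the testis pools. Its 1486 counts in ovary and 1 count in testis gave a ratio of 1934 after TMM rescaling, with an exact 95% counting interval of 347 to 76442 (edgeR adjusted p = 3.31e-08). LOC103396892 passed the filter through ovary alone, so its direction was built in.

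The Z copy h2az2a was at 7.55, 11.0 and 9.17 FPKM in the ovary pools and at 203, 181 and 239 FPKM in the testis pools. It was 13.0-fold lower in ovary (log2 difference -3.70, SE 0.18, edgeR adjusted p = 8.03e-09). In females the W copy stood above the Z copy in all 3 ovary pools, in 2 of the 3 brain pools and in 2 of the 3 pituitary pools, but in only 1 of the 3 liver pools. Neither gene had a fractional count in any library. Neither gene came near LOC103385172, a H2A.Z-like gene assigned to chromosome 1, in ovary. LOC103385172 had 1451, 1849 and 1337 FPKM in the ovary pools and 435, 380.4 and 355 FPKM in the testis pools (log2 difference 2.78, SE 0.18, edgeR adjusted p = 6.47e-08). It was above h1m in ovary pool 2 and below it in pools 1 and 3, and made up 92.3 ± 1.57% of the summed FPKM of the 13 H2A family genes in ovary and 54.8 ± 3.68% in testis (SD, n = 3 pools each).

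**Figure D3:**
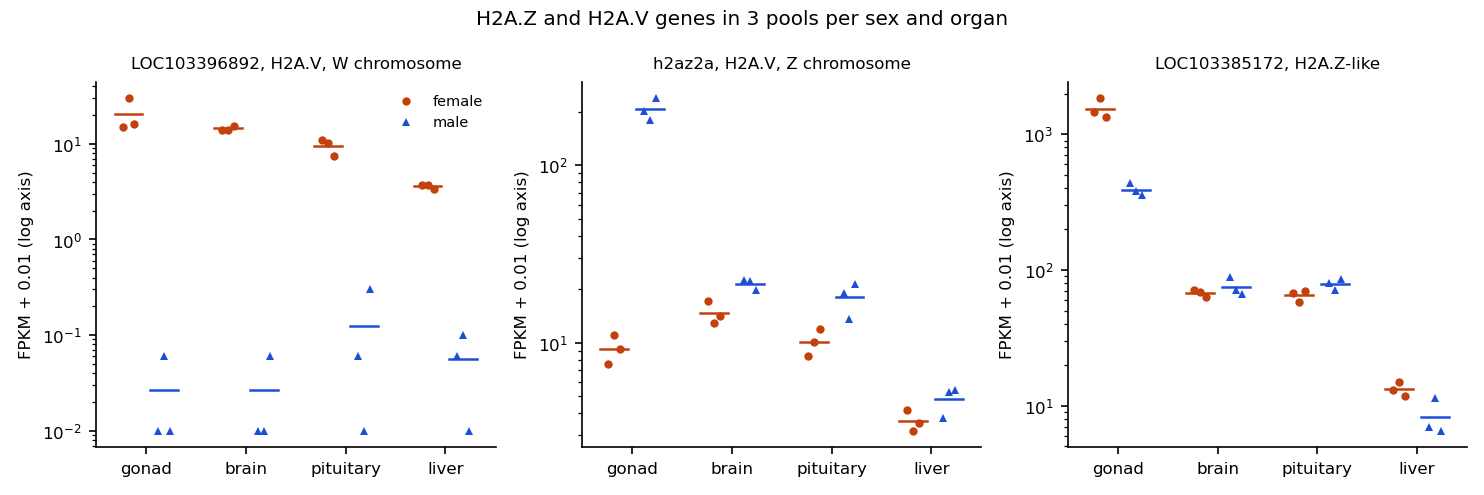
FPKM + 0.01 on a log axis for the W-linked and Z-linked H2A.V genes and the H2A.Z-like gene LOC103385172 in 4 organs. Each point is a pool, female pools (circles) left of male pools (triangles), and the line is the mean of 3. The W copy was at 3.32 FPKM or more in all 12 female pools and at 0.290 FPKM or less in all 12 male pools, and the Z copy was highest in the testis pools.

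The remaining variants of the name rule were higher in testis or not called. LOC103394976, an H3.3-like gene, encodes the H3 form that is laid down without replication. It was at 6.34, 6.72 and 6.81 FPKM in the ovary pools and at 287, 113 and 205 FPKM in the testis pools (log2 difference -4.15, SE 0.36, edgeR adjusted p = 1.13e-05). Testis pool 2 was the lowest of its group and still far above every ovary pool. Outside the gonads it was at 0.62 FPKM or less except in male pituitary pool 3, which had 5.83 FPKM and also the most spermatogenic marker transcripts of the pituitary libraries, 26.9 FPKM against 5.20 to 6.34 FPKM.

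CENP-A, encoded by cenpa (ncbi-103389096), replaces H3 at centromeres. Its levels were 71.1, 90.5 and 81.3 FPKM in the ovary pools and 311, 256 and 260.5 FPKM in the testis pools. The difference was smaller after rescaling (log2 difference -0.98, SE 0.15, edgeR adjusted p = 7.66e-05). MacroH2A genes carry a large extra domain and in mammals mark silent chromatin such as the inactive X. Of them, macroh2a2 (ncbi-103386946) was at 18.1, 16.6 and 17.1 FPKM in ovary and 65.2, 70.3 and 62.9 FPKM in testis (log2 difference -1.13, SE 0.14, edgeR adjusted p = 1.42e-05).

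Of the variants of the name rule, with hmgn1a counted among them, 3 were not called, and the sign of each turned with the scaling. First, macroh2a1 (ncbi-103394940) was at 2.73, 5.24 and 3.22 FPKM in ovary and 4.05, 8.64 and 5.74 FPKM in testis, with overlapping groups (log2 difference 0.08, SE 0.31, edgeR adjusted p = 0.813; -0.73 without rescaling). Next, h2ax (ncbi-103395309), whose product is phosphorylated beside DNA breaks, had 8.99, 5.74 and 6.29 FPKM in ovary and 6.44, 8.19 and 9.66 FPKM in testis (log2 difference 0.61, SE 0.28, edgeR adjusted p = 0.0605; -0.20 without rescaling). For hmgn1a the levels were 70.0, 158 and 77.7 FPKM in ovary and 119, 191 and 139 FPKM in testis (log2 difference 0.25, SE 0.31, edgeR adjusted p = 0.475; -0.56 without rescaling).

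The core histone calls are given by family beside 38.8% of all genes higher in ovary and 45.4% higher in testis; each family has few tested genes and no difference between families was tested. All 4 tested H2A genes were called higher in ovary, 2 of them, LOC103379255 and LOC103379246, not without rescaling. None of the 5 tested H4 genes was, and 3 of them were higher in testis. Of the 4 tested H2B genes 1 was higher in ovary and 2 in testis, and of the 3 tested H3 genes 1 was higher in each gonad. Over the 16 tested core genes that made 6 calls in each direction, with a median log2 difference of 0.06. Among these calls the H2A gene LOC103381130 passed the filter through ovary alone. The H2B gene LOC103395675 and the H4 genes LOC103381128 and LOC103382514 passed through testis alone, so the direction of all of these was built in.

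Among the core genes of the name rule, an H2B gene outweighed the others in ovary. LOC103379065, named H2B.3-like, was at 509.9, 653 and 381 FPKM in the ovary pools and at 0.950, 0.690 and 1.68 FPKM in the testis pools (log2 difference 9.64, SE 0.34, edgeR adjusted p = 2.32e-09). It supplied 98.5 ± 0.306% of the summed FPKM of the H2B genes of the name rule in ovary and 3.04 ± 1.48% in testis (SD, n = 3 pools each). With the late H2B gene h2bk1, which falls outside the rule, its share in ovary was 69.7 ± 6.52% (SD, n = 3 pools). In testis the leading H2B gene was LOC103382516, at 26.8, 19.6 and 25.3 FPKM, against 7.58, 6.84 and 5.13 FPKM in ovary (log2 difference of ovary minus testis -1.06, SE 0.28, edgeR adjusted p = 0.00393). That call was lost without ovary pool 3 (edgeR adjusted p = 0.0547).

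LOC103381127, a H2A-like gene on chromosome 7, was the most abundant clustered core gene in both gonads. It had 73.7, 38.5 and 68.1 FPKM in ovary and 37.3, 23.0 and 26.8 FPKM in testis, so that the lowest ovary pool lay just above the highest testis pool (log2 difference 1.85, SE 0.29, edgeR adjusted p = 1.60e-04). Its neighbour LOC103381130 had 2.70, 2.45 and 2.77 FPKM in ovary and 0.960, 0.340 and 0 FPKM in testis (log2 difference 3.29, SE 0.67, edgeR adjusted p = 7.61e-04). LOC103381130 passed the filter through ovary alone, so its direction was built in. The H2A genes of chromosome 5 were weaker calls. LOC103379255 had 2.69, 2.25 and 2.05 FPKM in ovary and 1.60, 0.740 and 0.700 FPKM in testis (log2 difference 1.92, SE 0.53, edgeR adjusted p = 0.00510). For LOC103379246 the FPKM of the groups overlapped, at 1.54, 2.66 and 1.68 in ovary and 2.26, 0.810 and 0.450 in testis, and 8 of its alternative fits did not call it (edgeR adjusted p = 0.0365, up to 0.394). The H3 gene LOC103379247 overlapped too, at 5.15, 4.38 and 4 FPKM in ovary and 5.70, 2.02 and 3.22 FPKM in testis (edgeR adjusted p = 0.0309, up to 0.549).

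Another 5 core genes with low levels made up the rest of the testis calls. Among them LOC103395675, LOC103382514 and LOC103381128 passed the filter through testis alone, so their direction was built in. LOC103395675, an H2B gene, was at 0.330, 0 and 0 FPKM in ovary and 17.1, 6.62 and 4.73 FPKM in testis (log2 difference -5.10, SE 0.87, edgeR adjusted p = 2.67e-04). The H3 gene LOC103395674 had 0.850, 1.97 and 1.80 FPKM in ovary and 19.6, 10.6 and 11.3 FPKM in testis (log2 difference -2.43, SE 0.40, edgeR adjusted p = 1.50e-04). The H4 genes were LOC103382514, LOC103381128 and LOC103391927, with log2 differences of -3.17, -2.20 and -1.52. Of these LOC103391927 was the most abundant, at 2.98, 4.02 and 2.02 FPKM in ovary and 20.0, 9.22 and 15.4 FPKM in testis (SE 0.37, edgeR adjusted p = 0.00269). Testis pool 2 or 3 was the lowest testis pool for each of the 5.

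The neighbour groups hold few tested genes each, and no difference between groups was tested. Their calls are given beside 38.8% of all genes higher in ovary and 45.4% higher in testis. In the chromosome 5 group 3 of 4 tested genes were higher in ovary and none in testis, and those 3 are the calls that were lost without rescaling. In the chromosome 8 group 3 of 4, in the chromosome 1 group 2 of 2 and in the chromosome 19 group 2 of 5 were higher in testis and none in ovary. The chromosome 7 group was mixed, with 2 H2A genes higher in ovary and an H4 gene higher in testis. The direction was built in for LOC103381130 and LOC103381128 on chromosome 7, LOC103382514 on chromosome 8 and LOC103395675 on chromosome 19. Summed FPKM of the chromosome 8 group was 19.7, 19.1 and 18.5 in the ovary pools and 257, 176 and 230.0 in the testis pools, most of it LOC103382515. Summed over all 28 clustered genes, the ovary pools had 122, 87.3 and 114 FPKM and the testis pools 393, 254 and 322 FPKM. That gap rested on LOC103382515: without it the sums were 112, 77.5 and 102 FPKM in ovary and 175, 101 and 121 FPKM in testis, which overlapped.

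**Figure D4:**
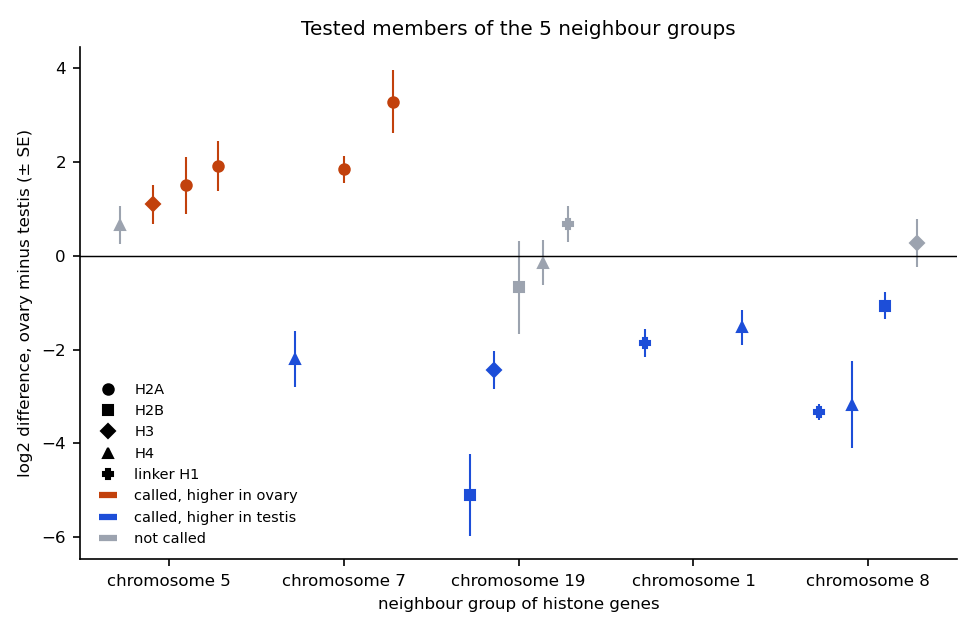
Log2 difference, ovary minus testis, with its SE for the tested histone genes of 5 neighbour groups. The marker shape gives the histone type and the colour the call. The called genes of the chromosome 5 group, not called without rescaling, lie above 0 and those of the chromosome 19, 1 and 8 groups below it, while the chromosome 7 group holds called genes on both sides.

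Copies of core histone genes are nearly alike, so reads can be split between them. Fractional counts, a sign that reads were shared, occurred in 15 of the 41 genes in at least 1 library. They occurred in gonad libraries in 9 of the 30 tested genes, LOC103379245, LOC103379246, LOC103379247, LOC103379255, LOC103381127, LOC103381130, LOC103395671, LOC103395674 and LOC103395675, and the values of single copies among these are uncertain. In the reference the gene model LOC103395770 overlaps 5 members of the chromosome 19 group, and LOC103379247 overlaps 2 of the chromosome 5 group. No source used here says whether the counting used strand.

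A further 7 rows named as histones fell outside the name rule, and some of them changed the picture of ovary. LOC103378060, a late histone H2A.2.2-like gene, averaged 5151 FPKM in ovary and 27.7 FPKM in testis (log2 difference 8.32), above every gene of the rule in ovary. The gene h2ax1, named histone 2, H2a, averaged 689 FPKM in ovary and 89.7 FPKM in testis (log2 difference 3.74, edgeR adjusted p = 1.7e-09). It was classed as core H2A by its product name, although its symbol is that of an H2AX gene. With LOC103378060 and h2ax1 included, the H2A.Z-like gene LOC103385172 made up 20.5 ± 2.82% of summed H2A family FPKM in ovary. In testis it made up 47.0 ± 2.56% (SD, n = 3 pools each). The late H2B gene h2bk1 averaged 208 FPKM in ovary and 0.463 FPKM in testis (log2 difference 9.56). It passed the filter through ovary alone, so its direction was built in. Of 3 further H3.3 rows, h3f3d was higher in ovary (1149 against 455 FPKM, log2 difference 2.14), while LOC103394977 and h3f3b were higher in testis (46.6 against 472.8 FPKM and 98.2 against 335 FPKM, log2 differences -2.54 and -0.98). With the 7 rows included, 28 of 37 tested genes were called, 13 higher in ovary and 15 in testis. Over all genes 84.2% were called, 38.8% higher in ovary and 45.4% in testis.

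Genes that make, carry or place histones were read from a list of 50 entries, of which 43 matched 49 genes. Over all tested genes 38.8% were called higher in ovary and 45.4% higher in testis, with a median log2 difference of -0.24. Of the 49, 26 were called higher in ovary and 17 higher in testis, with a median log2 difference of 0.37. That balance turned with the scaling: without rescaling 17 were higher in ovary and 25 in testis, with a median of -0.44, and with median-ratio scaling 27 and 13, with a median of 0.53. The stem-loop binding protein, which steadies and helps translate core histone messages, has 2 genes in the table. LOC103395664 was at 217, 209 and 201 FPKM in ovary and 3.57, 6.69 and 4.17 FPKM in testis (log2 difference 6.25, SE 0.23, edgeR adjusted p = 1.62e-09). Its relative slbp was at 3.66, 2.75 and 3.80 FPKM in ovary and 1.54, 0.780 and 1.90 FPKM in testis (log2 difference 2.07, SE 0.38).

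Other leading genes of that list also differed by gonad. The gene lsm11, part of the U7 particle that trims histone messages, averaged 103 ± 8.39 FPKM in ovary and 6.38 ± 0.764 FPKM in testis (SD, n = 3 pools each; log2 difference 4.81). LOC103396247 is named for N1/N2, the frog oocyte protein that stores H3 and H4. It averaged 1239 ± 241 FPKM in ovary and 134 ± 3.71 FPKM in testis (SD, n = 3 pools each; log2 difference 4.23). The W-linked SET gene LOC103397141, of a histone chaperone family, was at 6.11, 6.35 and 5.88 FPKM in ovary and 0, 0 and 0.0600 FPKM in testis, while the Z-linked set was at 12.1, 16.5 and 19.1 FPKM in ovary and 143, 165 and 172 FPKM in testis (log2 difference -2.54). LOC103397141 passed the filter through ovary alone, so its direction was built in. The gene set had fractional counts in gonad, so its values are less certain. Across the gonads this pair went the same ways as the W and Z copies of H2A.V. In ovary, however, the W-linked SET gene lay below the Z-linked one in all 3 pools. As for H2A.V, sex cannot be told apart from the sex chromosomes carried.

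Highest in testis relative to ovary were casp8ap2, ipo4, set and atrx. The first encodes FLASH, which acts with U7 in histone message processing, and averaged 1.02 FPKM in ovary and 15.8 FPKM in testis (log2 difference -3.14). The importin gene ipo4, whose product carries H3 and H4 into the nucleus, averaged 14.1 FPKM in ovary and 180.0 FPKM in testis (log2 difference -2.88). The gene atrx, which helps place H3.3, averaged 4 FPKM in ovary and 35.6 FPKM in testis (log2 difference -2.34). The gene npat, which switches on core histone genes in S phase, was at 6.02 FPKM in ovary and 15.2 FPKM in testis (log2 difference -0.54, edgeR adjusted p = 0.0119), a call that was lost with median-ratio scaling, with DESeq2 and without any one ovary pool (adjusted p up to 0.205). The chaperone gene asf1ba was not called (log2 difference 0.22, edgeR adjusted p = 0.153; -0.58 without rescaling). The summed FPKM of 18 genes of dividing cells was 5375 to 5835 in ovary and 5927 to 6770 in testis. The largest part was pcna, which averaged 1528 FPKM in ovary and 4162 FPKM in testis. After TMM rescaling 9 of the 18 were called higher in ovary and 5 in testis, with a median log2 difference of 0.26. Over all genes the shares were 38.8% and 45.4% and the median was -0.24.

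Female and male brains were compared in 14 tested histone genes, of which 6 were called, or 42.9% against 20.3% of all genes. Females were higher in 4, or 28.6% against 9.36%, and males in 2, or 14.3% against 10.9%. The 2 were h2az2a and hmgn1a, of which hmgn1a is no histone. Of the 4, LOC103396892 passed the filter through females alone, so its direction was built in. The W copy of H2A.V, LOC103396892, was at 14, 14 and 15.3 FPKM in female brain and at 0, 0 and 0.05 FPKM in male brain. Its 700 and 1 counts gave a ratio of 807, with an exact 95% counting interval of 144 to 31919 (edgeR adjusted p = 1.18e-10). The Z copy h2az2a went the other way, at 17.1, 12.9 and 14.1 FPKM in female brain and 22.6, 22.1 and 19.7 FPKM in male brain (log2 difference -0.59, SE 0.12, edgeR adjusted p = 0.00339).

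Apart from the W copy the called brain differences were under 2-fold. The linker gene LOC103382515 was at 33.6, 28.5 and 29.8 FPKM in female brain and 19.3, 18.1 and 22.1 FPKM in male brain (log2 difference 0.58, SE 0.11, edgeR adjusted p = 0.00175). The H2A-like gene LOC103381127 had 27.0, 21.1 and 24.4 FPKM in female brain and 16.7, 11.8 and 13.2 FPKM in male brain (log2 difference 0.75, SE 0.16, edgeR adjusted p = 0.00481). The level of hmgn1a was 32.2, 37.8 and 36.2 FPKM in female brain and 51.5, 49.3 and 41.8 FPKM in male brain (log2 difference -0.47, SE 0.10, edgeR adjusted p = 0.00441). In none of these did the sexes overlap.

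All 6 brain calls were also made without male brain pool 1. They fell to 2, LOC103396892 and h2az2a, when all 24 libraries shared one fit. Hepatocyte markers summed to 2932 to 3451 FPKM in female brain and 1934 to 2175 FPKM in male brain, and blood markers to 1266 to 1711 FPKM in female brain and 1072 to 1330 FPKM in male brain. Their part in the brain differences was not tested.

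Female and male pituitaries were compared in 14 tested genes too, and 6 were called, or 42.9% against 26.7% of all genes. Females were higher in 4, or 28.6% against 12.4%, and males in 2, or 14.3% against 14.3%. Of the 4, LOC103396892 and the H4 gene LOC103382514 passed the filter through females alone, so their direction was built in. The W copy LOC103396892 was at 10.9, 10.1 and 7.40 FPKM in female pituitary and 0.05, 0 and 0.290 FPKM in male pituitary (log2 difference 6.30, SE 0.51, edgeR adjusted p = 1.50e-05). Of its 6 counts in males, most came from male pool 3, and without that pool the log2 difference was 8.07 (edgeR adjusted p = 4.32e-06). The 486 and 6 counts of all pools gave a ratio of 84.1, with an exact 95% counting interval of 38.4 to 230. The Z copy h2az2a was at 8.39, 10.1 and 11.9 FPKM in females and 19, 13.5 and 21.4 FPKM in males (log2 difference -0.85, SE 0.19, edgeR adjusted p = 0.00742).

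The other pituitary calls were closer to the threshold. LOC103382516, the leading H2B gene there, was at 17.8, 13.4 and 10.8 FPKM in females and 6.87, 6.33 and 9.25 FPKM in males (log2 difference 0.88, SE 0.27, edgeR adjusted p = 0.0331). LOC103382514, an H4 gene, was at 2.97, 1.33 and 1.28 FPKM in females and 0.180, 0.600 and 0 FPKM in males (log2 difference 2.74, SE 0.86, edgeR adjusted p = 0.0359). LOC103381127 overlapped between the sexes, at 21.9, 11.8 and 18.3 FPKM in females and 9.98, 8.29 and 12.6 FPKM in males (log2 difference 0.73, SE 0.25, edgeR adjusted p = 0.0465). The variant gene macroh2a2 was at 48.2, 40.5 and 43.3 FPKM in females and 59.5, 61.5 and 52.2 FPKM in males (log2 difference -0.42, SE 0.12, edgeR adjusted p = 0.0231).

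These 4 calls depended on single libraries. LOC103382514 was lost without male pool 3 (edgeR adjusted p = 0.0762), and macroh2a2 and LOC103381127 without female pool 3 (edgeR adjusted p = 0.0749 and 0.113). LOC103382516 was lost without female pool 1 or 2 or male pool 1 or 2. Further losses were macroh2a2 without female pool 2 or male pool 1 or 2, LOC103381127 without female pool 1 or male pool 1 or 2, and LOC103382514 without male pool 1. A replicate block lost LOC103382514 and LOC103382516. Without both pools numbered 3, LOC103382516, h2az2a and macroh2a2 were still called and LOC103381127 was not (edgeR adjusted p = 0.0764). The count of calls was 2 without female pool 1, 2 or 3 or male pool 1, 3 without male pool 2, 7 without male pool 3, and 5 without both pools numbered 3. Without any 1 female pool, LOC103396892 and LOC103382514 no longer passed the filter of 1 FPKM in 3 libraries, so 2 of the lost calls were then not tested. Male pool 3 had 6.93 FPKM of cenpa, singled out after its values were seen, against 0.760 and 0.820 FPKM in the other male pools, and 304 FPKM of summed dividing-cell markers, against 146 to 164 FPKM.

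In liver 10 histone genes were tested and 2 were called, or 20.0% against 6.82% of all genes. Both were higher in females, against 1.88% of all genes, and 0 by edgeR were higher in males, against 4.94%, with 4 of the 10 under an unadjusted p of 0.05 in either direction. Of the 2 called genes, LOC103396892 passed the filter through females alone, so its direction was built in. This W copy was at 3.69, 3.71 and 3.32 FPKM in female liver and 0.05, 0.0900 and 0 FPKM in male liver. Its 238 and 3 counts gave a ratio of 74.8, with an exact 95% counting interval of 25.3 to 365 (edgeR adjusted p = 6.33e-05). LOC103381127 was at 4.61, 7.51 and 7.86 FPKM in female liver and 3.1, 2.21 and 2.57 FPKM in male liver (log2 difference 1.21, SE 0.27, edgeR adjusted p = 0.0274). It was called higher in females in all 4 organs, the only gene besides LOC103396892 with 4 such calls. The Z copy h2az2a was at 4.18, 3.17 and 3.50 FPKM in female liver and 3.76, 5.28 and 5.41 FPKM in male liver and was not called (log2 difference -0.50, edgeR adjusted p = 0.190). The call of LOC103381127 was lost without female pool 2 or 3 or male pool 2 or 3. LOC103396892 could not be tested without any 1 female pool, since it then failed the filter, and was called in every fit that tested it.

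For 15 histone genes one edgeR fit of 18 libraries asked whether the sex difference varied by organ outside the gonads. One was called, or 6.67% against 8.83% of all genes. This was the H2A.Z-like gene LOC103385172, with log2 differences, female minus male, of -0.19 in brain, -0.30 in pituitary and 0.59 in liver (edgeR adjusted p = 0.0349 for the difference among organs). Its levels were 71.0, 69.0 and 63.2 FPKM in female brain and 88.4, 70.6 and 66.1 FPKM in male brain. In pituitary they were 68.2, 57.7 and 70.0 FPKM in females and 80.4, 70.8 and 85.4 FPKM in males, and in liver 12.9, 15.0 and 11.8 FPKM in females and 6.92, 11.3 and 6.51 FPKM in males. In none of the 3 organs was the sex difference called on its own, and without male brain pool 1 the brain value was -0.05 (edgeR adjusted p = 0.754). The labels do not say whether organs share fish; same-numbered pools of a sex had positively correlated deviations in each pair of these organs (0.0102 to 0.241), and with a replicate block within sex the adjusted p by edgeR was 0.0471. The W copy LOC103396892 was not called by this test (edgeR adjusted p = 0.206). Its sex differences rested on 1, 6 and 3 counts in male brain, pituitary and liver, so the test cannot decide whether they varied.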

How the data were processed

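Per the file headers, the deposited table holds FPKM and estimated counts per gene for 24 libraries. The submitters' processing notes name TopHat2 2.0.3.12 and Bowtie2, with no role. The quantification tool, build, annotation and strand setting are not given in the sources used here. Per deposited column, 97.1 to 98.4% of estimated counts were whole; they were rounded. The 41 genes and all lists were chosen with earlier results of these data known. Symbols and chromosomes came from RefSeq assembly Cse_v1.0 through NCBI identifiers (40 of 41 matched).

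Females were compared with males in each organ by the edgeR 4.0.16 quasi-likelihood test (TMM, robust) on genes that reached 1 FPKM in 3 of the 6 libraries, adjusted by Benjamini-Hochberg over all genes tested. Differences are female minus male on the log2 scale; SE is the absolute difference over the square root of F. The design had foreseen either counts or FPKM, and counts were present. The test among organs used 18 libraries. Alternatives used DESeq2 1.42.0 and limma 3.58.1 on log2(FPKM + 1) or log2(FPKM + 0.1), under R 4.3.3. Fits without both pituitary libraries numbered 3 and with the 7 histone rows outside the name rule were added after seeing the data. The main fit was tested on simulated data with 200 genes changed, in equal numbers up and down. Such data do not test the scaling in gonad, where most genes were called.

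Named in gonad were the 10 largest called differences in each direction, the 5 highest genes and every tested linker or variant gene; in other organs, the 4 largest in each direction; and 4 supply genes in each direction with slbp, npat and the asf1 and npm2 genes (npm2 and asf1a were not matched). Intervals cover counting error only. The named values of 1 gene are not reported here; counts and sums include it.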

Additional observations from a re-analysis of the deposited data

Results flagged for a closer look

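One result stood out by a test of the difference itself. The sex difference of the H2A.Z-like gene LOC103385172 differed among brain, pituitary and liver in the fit of 18 libraries (edgeR adjusted p = 0.0349), with log2 differences, female minus male, of -0.19 in brain, -0.30 in pituitary and 0.59 in liver, none of them called on its own. Without male brain pool 1, which carried oocyte transcripts, the brain value was -0.05. The adjusted p ran from 0.004 to 0.102 over the alternatives, and the call was lost without any one of 8 of the 18 libraries, 4 of them from liver.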

How the results depend on the processing

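In ovary against testis 22 genes were called, and between 15 (filter at 5 FPKM) and 23 under the alternatives that kept all libraries, with 16 to 22 when each library was left out; no call changed direction. In brain the count of 6 fell to 2 with all 24 libraries in one fit and was 5 to 6 without single libraries. In pituitary the count of 6 ranged from 2 to 7, and in liver the count of 2 ranged from 0 to 2, without single libraries; the 5 FPKM filter left 0 in liver, with 6 genes tested and LOC103396892 and LOC103381127 not among them. The test among organs gave 0 to 2 without single libraries against 1. With a replicate block the counts were 21 in gonad, 6 in brain, 4 in pituitary, 2 in liver and 1 among organs. Deviations of same-numbered pools of the sexes had correlations of both signs (-0.174 to 0.225), the highest in liver. Across organs within a sex all were positive (0.0102 to 0.241), over 0.1 in all 3 pairs of female brain and pituitary only. Part of each fall without single libraries is built in, since genes seen in 1 sex alone then fail the filter: 2 or 3 of the gonad calls, 1 in brain and liver and 2 in pituitary were untested in such fits. Other causes were not tested.

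Among the differences picked by the naming rule above, the signs that turned were those of 5 genes not called in gonad. Without scaling the log2 difference in gonad was -0.56 for hmgn1a, -0.73 for macroh2a1, -0.20 for h2ax, -0.12 for LOC103395672 and -0.58 for asf1ba. With limma on log2(FPKM + 1) these were -0.62, -0.58, -0.19, -0.05 and -0.57, and with log2(FPKM + 0.1) -0.63, -0.69, -0.21, -0.06 and -0.57. The 5 FPKM filter gave -0.03 for hmgn1a, -0.20 for macroh2a1 and -0.04 for asf1ba. Leaving out single gonad libraries gave -0.38 to 0.56 for hmgn1a, -0.64 to 0.37 for macroh2a1, -0.02 to 0.97 for h2ax, -0.04 to 0.92 for LOC103395672 and -0.40 to 0.42 for asf1ba. Pools of 5 fish and 3 pools per group limit precision, and core genes below 10 FPKM rest on few counts.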
